A study of Mus musculus with 6 samples.

Results

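The claudins Cldn1, Cldn3, Cldn4, Cldn5, Cldn7, Cldn8, Cldn10, Cldn12 and Cldn23 and the tight junction protein occludin (Ocln) were followed in mouse back skin with and without UVB. These 10 genes were taken by their names in the array files, as genes of 1 family and its partner, by a rule that used no measured value. Earlier results of these data were known when the genes were chosen. All 10 had a probe on the array, 12 probes in all out of 55681, and all 10 passed the filter on dim probes. They are 10 of the 24362 targets that were tested, a target being a gene or unnamed transcript represented by its brightest probe.

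The study compared the back skin of male C57BL/6 mice aged 6 to 8 weeks, with 3 mice in a group and 1 array for each mouse. The back hair of all mice was shaved. From 2 days later the UVB group was anaesthetised and irradiated with 180 mJ/cm2 of UVB, 3 times a week for 2 weeks, while the control group was kept dark and received no UVB. RNA of whole skin was measured, so that epidermis, hair follicles, glands, vessels, muscle and fat share each sample. How long after the last exposure the skin was taken is not stated in the labels.

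Tight junctions seal the space between neighbouring epithelial or endothelial cells and limit the passage of water, ions and larger molecules. Claudins are tetraspan membrane proteins that polymerise into the junction's strands. Their extracellular loops decide whether a strand is a barrier or a selective channel, and occludin joins the strands and is held with them by scaffold proteins under the membrane. In the epidermis functional tight junctions lie in the granular layer, and mice without Cldn1 die soon after birth from water loss through the skin.

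The bases of 2 probes are shown because they bear on how the values of Cldn4 and Cldn10 can be read. The first is the second probe of Cldn4, an independent stretch of the same transcript read beside the brighter probe. The other is the only probe of Cldn10, a gene with several isoforms, for which the array files list more than one transcript, so that its values do not separate them. Each is 60 bases long, is written 5′ to 3′ as the array files give it, and no base is marked.
Cldn4, second probe: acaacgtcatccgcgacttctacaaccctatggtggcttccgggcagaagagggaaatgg
Cldn10: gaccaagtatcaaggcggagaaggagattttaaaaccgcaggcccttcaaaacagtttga
In mm9, the build of the files, the first lies at chr5:135422135-135422194 on the minus strand, from base 610 of the Cldn4 transcript, and has 55% G and C. The second lies at chr14:119273459-119273518 on the plus strand, from base 657 of the Cldn10 transcript, and has 45% G and C.

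All values below are log2 signals relative to the 75th percentile of the same array, so that 0 stands for a spot at that percentile. Probes differ in how well they bind, so a level of one gene is not set against that of another. Differences are UVB minus control on the log2 scale, with limma's standard error (SE), its 95% interval, and its p adjusted over all 24362 targets by Benjamini-Hochberg. A gene was called when that p was under 0.05.

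None of the 10 genes was called by limma in either direction, where 12.6% of all targets were called, 5.56% as higher and 7.01% as lower after UVB. No gene had groups that did not overlap, where 38.5% of all targets did, 15.9% as higher and 22.6% as lower after UVB. By probe, 0 of 12 were called, where 11.2% of all tested probes were. The unadjusted p was under 0.05 for 1 of the 10, Cldn8, and for 31.5% of all targets. Of the 10 differences, 3 were positive and 7 negative, with a median of -0.10 beside -0.04 over all targets. The median size of the difference, whatever its sign, was 0.106 beside 0.300 over all targets. The median SE was 0.205 beside 0.175, so the genes were measured with slightly less precision than the typical target. With 10 genes these counts are a description, and no test was made over the list.

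**Figure D1:**
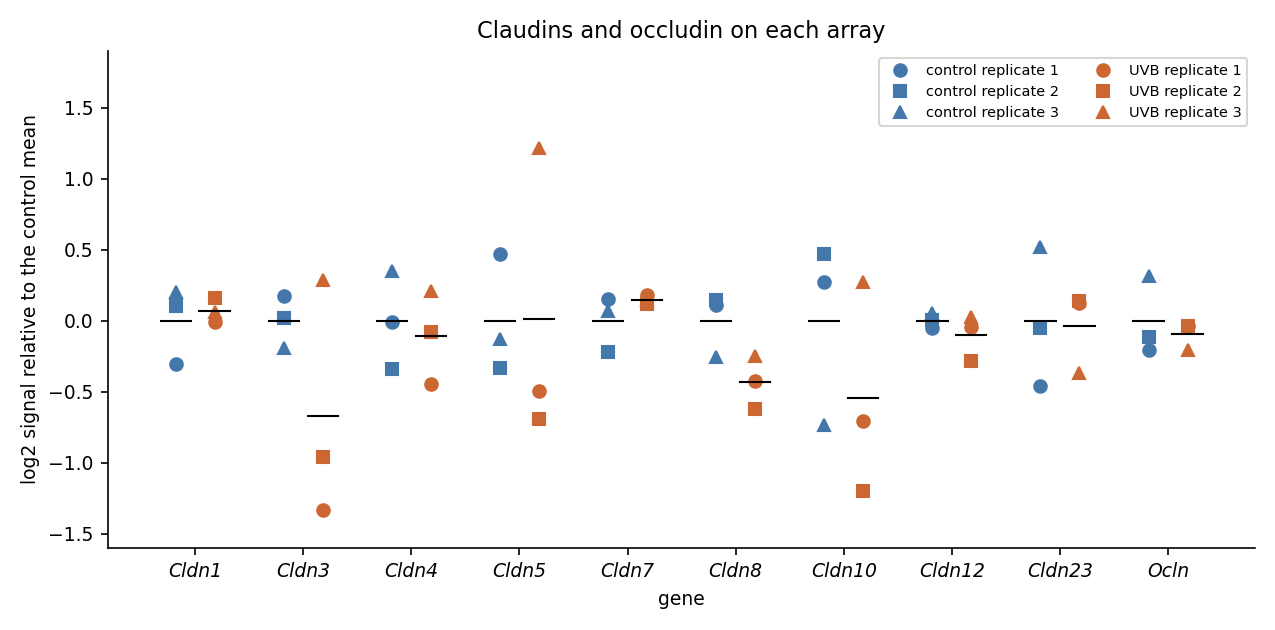
Each point is 1 array: the y axis gives the log2 signal of the gene minus the mean of its 3 control arrays, control in blue and UVB in orange, with a black bar at each group's mean and the symbol giving the replicate number. Groups overlap for every gene, the 3 UVB arrays of Cldn3, Cldn5 and Cldn10 are the most scattered, and those of Cldn7 the least.

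Cldn1 builds the main barrier-forming strands of the epidermis. Its probe, at chr16:26357372-26357431 on the minus strand, read 1.32, 1.73 and 1.83 in control mice 1 to 3 and 1.61, 1.79 and 1.68 in UVB mice 1 to 3. All 3 UVB values lay inside the control range. The difference was 0.07 ± 0.17 (SE, n = 3 per group, limma adjusted p = 0.807), a ratio of 1.05 with an interval of 0.796 to 1.38. Changes of Cldn1 within that interval could not be resolved with 3 arrays a group. As in all bulk tissue, fewer cells of a type and less RNA per cell cannot be told apart in these values.

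Cldn4 is a barrier-forming claudin of the upper epidermal layers and of glands. Its brighter probe read 1.23, 0.90 and 1.59 in controls and 0.80, 1.16 and 1.45 after UVB. The difference was -0.11 ± 0.24 (limma adjusted p = 0.795, interval -0.69 to 0.47). The groups overlapped over most of their range. The second probe, whose bases are given above, read -0.57, -0.76 and 0.08 in controls and -0.79, -0.41 and -0.42 after UVB, a difference of -0.12 ± 0.25. Both probes therefore put the Cldn4 difference at nearly the same place, and on both control mouse 3 was the highest of the controls.

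Occludin is no claudin but a MARVEL-domain protein of the same strands. Its brighter probe read 0.14, 0.23 and 0.66 in controls and 0.31, 0.31 and 0.14 after UVB. The difference was -0.09 ± 0.17 (limma adjusted p = 0.742, interval -0.51 to 0.32). The UVB values lay within the control range but for UVB mouse 3, which stood level with the lowest control. The second occludin probe read -1.81, -1.93 and -1.83 in controls and -2.0, -2.04 and -1.87 after UVB, a difference of -0.11 ± 0.12 (limma p adjusted over all 33770 tested probes = 0.568). It covers chr13:101267384-101267443, nearer the transcript's 3′ end than the brighter one at chr13:101268529-101268588.

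Cldn7, found along the lateral membrane of many epithelia, gave the tightest UVB values of the 10 genes. It read -1.79, -2.16 and -1.88 in controls and -1.76, -1.82 and -1.80 after UVB. The UVB values lay above 2 of the 3 controls, and the difference was 0.15 ± 0.14 (limma adjusted p = 0.509, interval -0.18 to 0.48).

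Cldn12, a claudin linked to paracellular calcium passage in the intestine, had the smallest standard error of the 10. It read 1.81, 1.87 and 1.92 in controls and 1.82, 1.58 and 1.89 after UVB, with UVB mouse 2 alone below the controls. The difference was -0.10 ± 0.13 (limma adjusted p = 0.624), and its interval, -0.41 to 0.21, was the narrowest of the 10.

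Cldn23, a claudin of less studied function, read -0.43, -0.02 and 0.55 in controls and 0.16, 0.17 and -0.33 after UVB. The controls spread over more of the scale than the UVB mice, and enclosed them. Its difference was -0.04 ± 0.28 (limma adjusted p = 0.946, interval -0.72 to 0.64).

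Cldn8 came nearest to a call. Cldn8 is a barrier-forming claudin best known from the kidney's collecting duct, where it works with Cldn4 in a chloride pathway. Its probe, at chr16:88561135-88561194, read -0.26, -0.23 and -0.62 in controls and -0.80, -0.99 and -0.62 after UVB. Control mouse 3 and UVB mouse 3 stood level, and apart from them every UVB value was below every control value. The difference was -0.43 ± 0.17 (limma unadjusted p = 0.0398, adjusted p = 0.138), a ratio of 0.741 with an interval of 0.560 to 0.981. The adjusted p ran from 0.0795 to 0.339 over 15 other ways of processing, with a negative difference in each.

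Cldn3, a barrier-forming claudin of simple and glandular epithelia, had the largest difference of the 10 and one of the largest spreads. It read 1.04, 0.87 and 0.67 in controls and -0.47, -0.10 and 1.14 after UVB. UVB mice 1 and 2 lay below all controls, whereas UVB mouse 3 lay above all of them. The standard deviation was 0.18 among controls and 0.85 among UVB mice (n = 3 each). The difference was -0.67 ± 0.41 (limma adjusted p = 0.313, interval -1.66 to 0.32). Without UVB mouse 3 it was -1.15 ± 0.19 (limma adjusted p = 0.0263), and this was the only one of the 15 other settings in which any of the 10 genes was called. Without UVB mouse 1 it was -0.34 (limma adjusted p = 0.612). The call without UVB mouse 3 rests on 2 UVB arrays, and what set UVB mouse 3 apart was not tested.

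Cldn10 forms ion-selective channels, for anions or cations by isoform, and is abundant in glands and kidney. It read -1.47, -1.27 and -2.47 in controls and -2.44, -2.94 and -1.46 after UVB. Each group had 1 mouse that stood with the other group's majority: control mouse 3 was low and UVB mouse 3 was high. The difference was -0.54 ± 0.47 (limma adjusted p = 0.469, interval -1.67 to 0.58). Leaving out UVB mouse 3 gave -0.95 and leaving out UVB mouse 2 gave -0.22, neither called.

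Cldn5 is the main claudin of blood vessel endothelium. Its signal was dim: the probe was well above background on all 3 control arrays but on only 1 of 3 UVB arrays. It read -3.91, -4.72 and -4.51 in controls and -4.87, -5.07 and -3.16 after UVB, so that UVB mouse 3 was the highest of all and the other UVB mice the lowest. The difference was 0.01 ± 0.53 (limma adjusted p = 0.993, interval -1.27 to 1.28). Its sign changed in 6 of 15 settings, and without UVB mouse 3 it was -0.59. Its interval was the widest of the 10 and holds both a halving and a doubling of the signal.

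**Figure D2:**
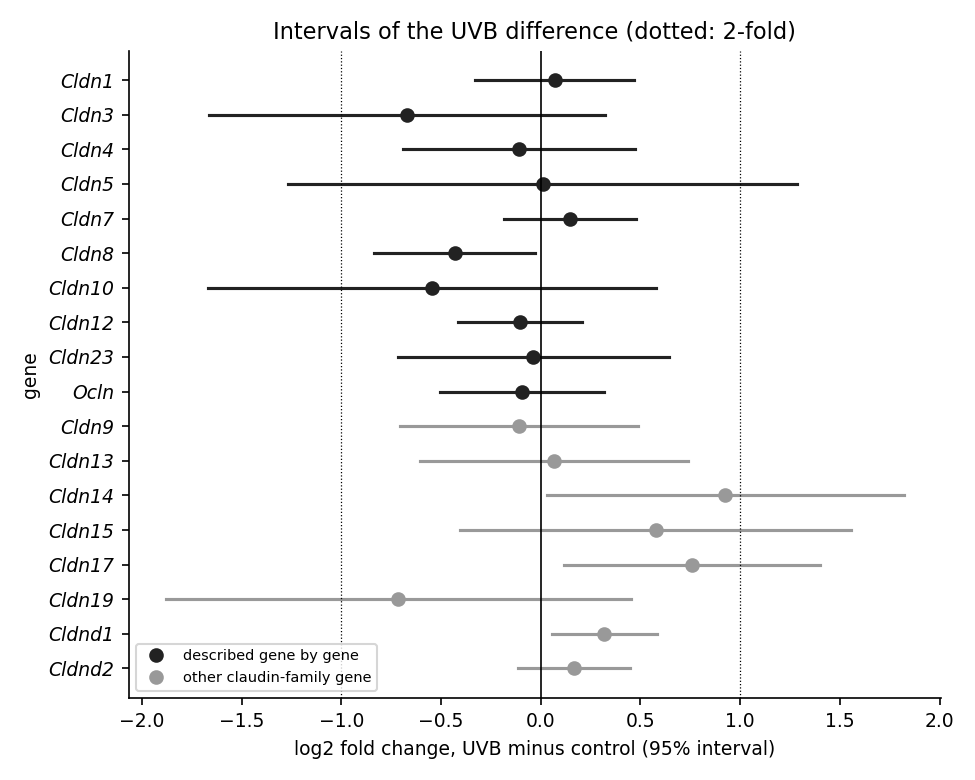
The x axis gives the log2 difference, UVB minus control, as a point with its 95% interval from limma for the 10 genes (black) and for the 8 other claudin-family genes tested (grey), and dotted lines mark 2-fold. The intervals of Cldn3, Cldn5 and Cldn10 cross a dotted line, those of the other 7 black genes do not, and that of Cldn8 ends just below 0.

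The intervals say how large a change could have been missed. For 7 of the 10 genes the interval lay within 2-fold in both directions, the exceptions being Cldn3, Cldn5 and Cldn10, and it did so for 65.8% of all targets. At the spread of each gene, the smallest measured difference that would have been called was 0.52 for Cldn12, 0.55 for Cldn7 and 0.66 for Cldn1. It was 0.67 for Cldn8 and 0.68 for Ocln. It was 0.96 for Cldn4, 1.13 for Cldn23, 1.65 for Cldn3, 1.87 for Cldn10 and 2.12 for Cldn5. For Cldn5 the measured difference would thus have had to be over 4-fold. These are limits on the measured difference, and a true change of that size can be measured as smaller and go uncalled.

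**Figure D3:**
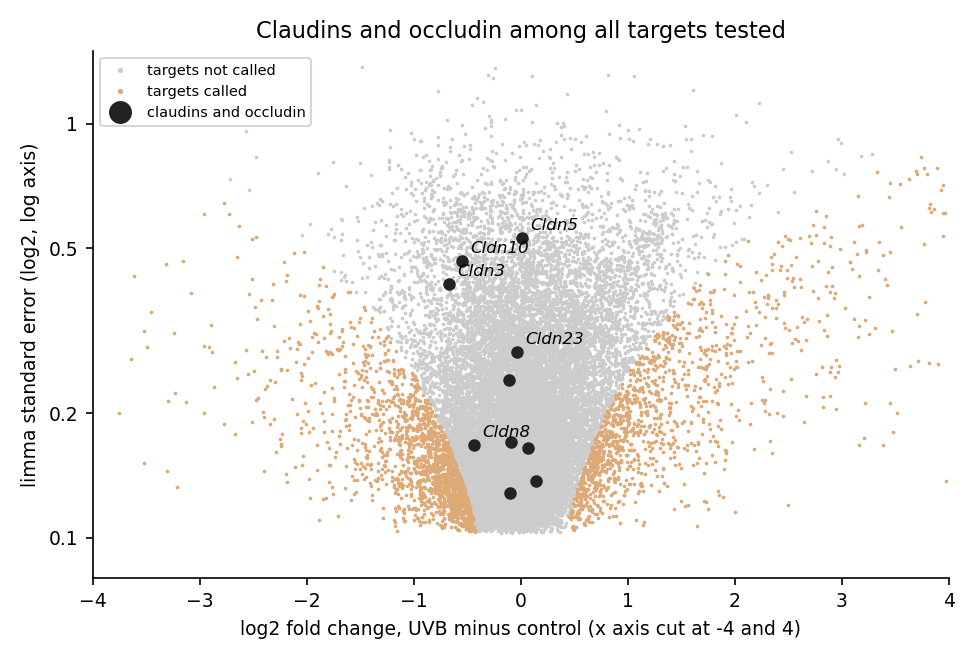
Each dot is a tested target, with its log2 difference on the x axis (shown from -4 to 4) and its limma standard error on a log y axis; called targets are orange, others grey, and the 10 claudin and occludin genes black. All 10 black dots lie in the grey zone, Cldn3, Cldn10 and Cldn5 toward the top where the error is large, and Cldn8 nearest to the orange zone.

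Array by array, UVB mouse 3 gave the highest UVB value for 6 of the 10 genes and UVB mouse 2 the lowest for 5. Control mouse 3 gave the highest control value for 5 of the 10. The genes did not all follow the same mice. By the root mean square difference of values centred on the controls, over 6 arrays, the most alike pairs were Cldn1 and Ocln (0.174) and Cldn23 and Ocln (0.179). The least alike were Cldn10 and Cldn23 (0.937) and Cldn5 and Cldn23 (0.908). Genes with small spread come out as alike by this measure whatever their pattern.

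Several claudin genes sit beside each other in the genome, and the differences of neighbours are given side by side here. In mm9 the probes of Cldn3 and Cldn4 on chromosome 5 are 41.9 kb apart, with differences of -0.67 and -0.11. Cldn13 lies 30.6 kb from Cldn4 and had a difference of 0.07. On chromosome 16 the probes of Cldn8 and Cldn17 are 55.0 kb apart, with differences of -0.43 and 0.76. None of these 5 genes was called, and the difference between neighbours was not tested.

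Beyond the 10 genes, 25 claudin-family genes had a probe. Of these, 14 were not well above background on any array and 8 were tested. None of the 8 was called by limma, 3 had groups that did not overlap (38.5% of all targets did), and their median difference was 0.24. Cldn17, another channel-forming claudin, read -4.28, -4.74 and -3.85 in controls and -3.61, -3.79 and -3.20 after UVB. All its UVB values were above all controls, with a difference of 0.76 ± 0.27 (limma adjusted p = 0.112), and it was called with normexp background correction alone (0.52, adjusted p = 0.0399). Cldnd1, a claudin-domain gene, read 3.50, 3.46 and 3.45 in controls and 3.72, 3.78 and 3.87 after UVB, a difference of 0.32 ± 0.11 (limma adjusted p = 0.105, or 0.047 with a robust and trended variance). Cldnd2, the third without overlap, differed by 0.17 ± 0.12 (limma adjusted p = 0.375). Cldn14, known from the inner ear and kidney, differed by 0.93 ± 0.37 (limma adjusted p = 0.148), with control mouse 1 inside the UVB range. The remaining differences were -0.11 ± 0.25 for Cldn9, 0.07 ± 0.28 for Cldn13, 0.58 ± 0.41 for Cldn15 and -0.71 ± 0.48 for Cldn19, of which the last rested on 1 UVB array well above background.

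The proteins that anchor and accompany claudins were read in the same fit. Of 24 tested scaffold, adhesion and MARVEL genes, 1 rose and 2 fell, where 12.6% of all targets were called, and their median difference was -0.06. Magi3, a scaffold of the junction's cytoplasmic plaque, rose from -3.33, -4.05 and -3.96 in controls to -1.69, -2.34 and -0.90 after UVB. All UVB values were above all controls. The rise was 2.14 ± 0.39 (limma adjusted p = 0.0222), but 1.28 with normexp (still called), and 1.56 and no longer called with the mean of its probes (adjusted p = 0.0722). It also lost its call without control mouse 2, control mouse 3 or UVB mouse 1 (adjusted p = 0.0846, 0.0646 and 0.0730).

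Tjap1, a tight junction-associated protein also found at the Golgi, fell. It read 0.19, 0.23 and 0.32 in controls and -0.82, -0.84 and -1.02 after UVB, 2 groups well apart. The difference was -1.14 ± 0.12 (limma adjusted p = 0.00478), and Tjap1 was called in all 15 other settings. Mpdz, a scaffold with many PDZ domains that binds claudins, fell from -2.65, -2.58 and -2.73 to -3.33, -3.53 and -3.62, a difference of -0.84 ± 0.13 (limma adjusted p = 0.0135). With normexp the Mpdz difference was -0.16 and was not called (adjusted p = 0.310), nor was it without control mouse 2 (-0.81, adjusted p = 0.0670).

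The best known partners were not called. Tjp1 (ZO-1), the first scaffold to which claudins and occludin bind, read 2.18, 2.28 and 2.31 in controls and 2.62, 2.63 and 2.50 after UVB. Its groups did not overlap, and the difference was 0.32 ± 0.11 (limma adjusted p = 0.108, but 0.0468 with quantile scaling and 0.0491 in the deposited table). The plaque protein Cgn (cingulin) differed by 0.18 ± 0.25. The adhesion molecule F11r (JAM-A) differed by -0.07 ± 0.12 and Cxadr by 0.12 ± 0.14. Marveld2 (tricellulin), occludin's relative at the corners where 3 cells meet, read 0.93, 0.98 and 1.06 in controls and 0.57, 0.58 and 0.80 after UVB. No UVB value of Marveld2 reached a control value, and the difference was -0.34 ± 0.12 (limma adjusted p = 0.116). Arhgef2 differed by 0.25 ± 0.13, Igsf5 by 0.02 ± 0.39 and Esam by 1.59 ± 0.86.

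Genes that place the junction or control its components gave 2 that rose and 2 that fell of 36 tested, a share near the 12.6% called among all targets, with a median of 0.00. Prss8 (prostasin), a membrane protease needed for the epidermal barrier, read 1.17, 1.14 and 1.65 in controls and 1.98, 2.17 and 2.29 after UVB. It rose by 0.83 ± 0.18 (limma adjusted p = 0.0344). Itch, a ubiquitin ligase reported to act on occludin, rose from 1.39, 1.35 and 1.56 to 2.13, 2.21 and 2.01, a difference of 0.68 ± 0.12 (limma adjusted p = 0.0218). In both genes every UVB value was above every control. With median scaling neither was called (Prss8 0.73, adjusted p = 0.0677, and Itch 0.58, adjusted p = 0.0714). Prss8 kept its call with 5 arrays only when control mouse 3 was left out (adjusted p = 0.0267), and Itch only without control mouse 3 or UVB mouse 3 (0.0417 and 0.0372).

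Zeb1, a repressor of epithelial junction genes expressed in mesenchymal cells, fell, with a difference of -0.81 ± 0.19 (limma adjusted p = 0.0406). Its difference was -0.26 and not called with normexp (adjusted p = 0.177), and with 5 arrays it was called only without control mouse 3 (adjusted p = 0.0351). Trp63, the master regulator of stratified epithelium, fell, with a difference of -0.51 ± 0.12 (limma adjusted p = 0.0455) at its brightest probe. The mean of its 4 probes, of which 1 had the other sign, gave -0.17 (adjusted p = 0.403), and no fit with 5 arrays called it.

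The other regulators were not called. The transcription factors Grhl1 and Grhl3, which drive epidermal barrier genes, differed by 0.04 ± 0.13 and 0.10 ± 0.28, and Snai2, a repressor of claudins and of occludin, by -0.02 ± 0.17. Cdh1 (E-cadherin) differed by -0.03 ± 0.13. Epcam, which binds and stabilises Cldn7, differed by -0.25 ± 0.14. The polarity gene Crb3 differed by -0.16 ± 0.13, and Amotl1 and Amotl2 by 0.05 ± 0.14 and 0.01 ± 0.21. Amot read -1.78, -2.08 and -2.17 in controls and -2.69, -2.82 and -2.21 after UVB, a difference of -0.56 ± 0.20 (limma adjusted p = 0.115).

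Among markers of cells that carry claudins, several were called, where 5.56% of all targets rose and 7.01% fell. All 12 markers of granular and cornified keratinocytes had a positive difference, and 5 rose. Of these layers it is the granular one that holds the functional tight junctions. Lor rose by 0.76, Flg by 3.70 and Ivl by 1.61, and the list's summed signal, in units of the 75th percentile, went from 1919 to 2663 in controls to 3633 to 4360 after UVB. Of 8 basal keratinocyte markers 3 fell, Trp63 among them, while Krt5 differed by 0.10. The sums of the 10 genes described here were 13.8 to 16.1 in controls and 12.5 to 15.2 after UVB. The part of the cell layers in the claudin values was not tested.

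For Cldn5, 8 of 12 endothelial markers could be tested. One of them, Eng, rose (0.96, limma adjusted p = 0.0181), while Pecam1 differed by 0.25, Kdr by 0.32, Egfl7 by 0.28, Ramp2 by -0.44 and Vwf by -0.15. The list's summed signal was 10.3 to 12.0 in controls and 13.0 to 16.1 after UVB, but most of it was Kdr, and without Kdr it was 1.62 to 2.22 in controls and 1.33 to 2.84 after UVB. Of 7 genes listed as markers of simple and glandular epithelium, beside which Cldn3 and Cldn10 are usually found, 4 rose and 1, Krt77, fell. Among all targets 5.56% rose and 7.01% fell, and how far the list stands for glandular tissue was not tested. The sum of the 7 genes was 85.2 to 118 in controls and 42.5 to 59.7 after UVB, nearly all of it Krt77. Without Krt77 it was 1.95 to 2.69 in controls and 5.38 to 7.22 after UVB. Krt7 rose by 2.65, Aqp5 by 2.00, Trps1 by 1.33 and Sox10 by 0.53, whereas Krt8 differed by -0.88 and Krt18 by -0.08. Krt18 read -2.03, -1.88 and -3.08 in controls and -2.51, -3.55 and -1.18 after UVB, low in control mouse 3 and high in UVB mouse 3 as Cldn10 was. Krt8 shared that pattern, with -3.09, -2.51 and -3.60 in controls and -4.39, -4.26 and -3.18 after UVB. Trps1 was also lowest in control mouse 3 and highest in UVB mouse 3, but its control mouse 2 stood level with control mouse 3. The rest of the list did not share the pattern in full. Krt7 and Krt77 were highest among controls in control mouse 3 (-3.23 and 6.86). Aqp5 and Sox10 were lowest among controls in control mouse 3 but not highest in UVB mouse 3. Whether the amount of glandular tissue set the Cldn3 and Cldn10 values was not tested.

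Among all targets 5.56% rose and 7.01% fell, beside which counts of 1 or 2 in the short lists below are not a result about those cells. Of the other lists, 8 of 9 inner root sheath markers rose, with a median of 7.33, and 4 of 10 sebaceous gland markers fell, with a median of -0.91. Of 6 melanocyte markers 4 rose, of 8 T cell and Langerhans cell markers 7 fell, and of 7 Schwann cell markers 1 rose and 2 fell. The Schwann cell marker that rose was Sox10, which is also counted among those that rose in the glandular list. Among 6 adipocyte markers 1 rose and 1 fell, and none of 7 skeletal muscle markers was called. Krt5, Krt14 and Lor were well above background on all 6 arrays, in keeping with the skin label. The 75th percentile of signal was 363 to 519 on control arrays and 302 to 352 on UVB arrays. A background signal of equal size therefore comes out somewhat higher on UVB arrays after this scaling. What this adds to the differences of dim genes such as Cldn5, Cldn17 and Magi3 was not tested.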

How the data were processed

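RNA of back skin from 3 control and 3 UVB-treated mice was hybridised to 1-colour Agilent arrays, and groups come from the sample titles. The authors deposited 1 scanner file per array and a table of log2 values. Spot intensities are, per the file headers, the output of Agilent Feature Extraction 10.7.1.1 after detrending, without scaling across arrays. The deposited log2 table has a median of 4.95 in each column, its sorted columns are alike within 0.00212, and its making is not stated in the labels or headers. It served as an alternative.

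From the processed intensity, control spots and those flagged as outliers (135 to 274 per array) were dropped, and log2 values minus the array's 75th percentile were taken. Probes entered the test when well above background on 3 or more of 6 arrays. Names were updated through a RefSeq gene table of GRCm38.p6, by accession for 26582 of 55681 probes and by symbol for 3094, while 26005 were left as the files name them. Positions are those of the files (mm9). The tested probe of highest mean stood for its gene. Groups were compared with limma 3.58.1 under R 4.3.3, using lmFit with eBayes and two-sided tests without covariates. P-values were adjusted by Benjamini-Hochberg across targets, with a threshold of 0.05. The scripts were tested on simulated data. All arrays shared 1 slide and 1 scan, and saturation flagged 0 spots. Precision is limited by the number of arrays. Each p-value weighs a difference against the spread between mice, which limma moderates with the spread of all targets.

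The genes, lists and alternatives were chosen with earlier results of these data known. The text names all 10 genes, every other tested claudin, the called genes of the partner and regulator lists with the first 6 uncalled ones in alphabetical order and a few set partners, and genes written first in the marker lists. Eng, Ramp2, Vwf, Krt77, Aqp5, Trps1 and Sox10 were named after their values were seen, and some genes of the lists are counted but not reported here by name. The alternatives were quantile and median scaling, normexp (offset 50), the deposited values, a stricter or no filter, the mean of a gene's probes, a trended robust variance, a replicate block and each array left out.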

Additional observations from a re-analysis of the deposited data

How the results depend on the processing

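Under 15 alternatives no claudin or occludin gene was called as higher, and 1 was called as lower only when UVB replicate 3 was left out, so that leaving out arrays gave 0 to 1 genes (Cldn3) and 0 to 1 of their probes. The median difference of the 10 genes ran from -0.22 to 0.004 when arrays were left out. The sign of an uncalled difference changed for Cldn5 in 6 alternatives, for Cldn1, Cldn4 and Cldn23 in 2 each and for Ocln in 1, and for the other 5 genes in none. Relative to the main setting, the median of all targets shifted by -0.10 with median scaling and 0.12 with normexp, and by 0.14 without a filter, which adds dim targets and left the differences of the 10 genes as they were.

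Among all targets, 1354 rose and 1708 fell. Normexp gave 2554 that rose, no filter on dim probes gave 1061 that fell, and leaving out arrays gave 473 to 959 that rose and 393 to 1064 that fell, with fewer arrays in each fit. Of tight junction partners with the other claudins, 1 rose. This was 2 with quantile scaling, 4 with normexp, 2 in the deposited table and 0 with the mean of the probes. It was 3 with a trended robust variance and 0 to 1 with arrays left out. Of the same genes 2 fell, or 1 to 2 with arrays left out. The number that fell was 3 with quantile scaling, in the deposited table and with a trended robust variance. Of polarity genes and regulators, 2 rose, and this was 0 with median scaling, 1 without a filter and 0 to 3 with arrays left out, while 2 fell, or 1 with normexp, 0 without a filter, 1 with the mean of the probes and 0 to 1 with arrays left out. Cell type markers gave 16 to 23 that rose and 6 to 12 that fell with arrays left out, beside 23 and 18. The cause of these moves was otherwise not tested.

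The labels do not say whether mice with the same replicate number were paired between groups. Deviations of same-numbered mice correlated at -0.11, -0.26 and -0.08, and 0 of 3 controls correlated best with their own number. With 3 mice a group these correlations cannot decide whether there was a pairing. With the replicate number as a block, 473 targets rose and 301 fell, no claudin or occludin gene was called, partners gave 0 that rose and 1 that fell, regulators 0 and 0, and 6 cell type markers fell. With 3 mice a group, changes of Cldn3, Cldn5 and Cldn10 below several-fold could not be resolved, and the dim signal of Cldn5 limits it further.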

Other observations

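Genes whose values followed those of a claudin over the 6 arrays were looked up for all 10 genes after the values had been seen, since the rule for likeness covered called genes only and none was called. The measure was the root mean square difference of log2 values centred on each gene's mean over the 6 arrays, for 15931 named genes. It differs in this from the measure for pairs of the 10 genes, which was centred on the controls. These are descriptions with no test, and some gene among so many will lie near any pattern.

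For Cldn3, whose own range was 1.62, the nearest was Cryab, a small heat shock protein, at 0.103. Cryab read 2.72, 2.57 and 2.17 in controls and 1.01, 1.36 and 2.59 after UVB, with UVB mouse 3 above the other UVB mice, as for Cldn3. The next was Mia, a secreted protein of cartilage and melanoma, at 0.127, which read -0.44, -0.66 and -0.94 in controls and -1.78, -1.41 and -0.46 after UVB.

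For Cldn10, with a range of 1.67, the nearest named here were Lrrn3 at 0.180 and Kbtbd3 at 0.193. Lrrn3 read -0.84, -0.92 and -1.94 in controls and -1.66, -2.01 and -0.78 after UVB, with the same low control mouse 3 and high UVB mouse 3. For Cldn5, with a range of 1.91, the nearest was Hba-a2, an alpha chain of haemoglobin, at 0.216. Hba-a2 read 4.59, 4.09 and 4.22 in controls and 3.30, 3.66 and 5.54 after UVB, and its near-identical copy Hba-a1, whose transcripts the probes may not separate, stood at 0.233. The haemoglobin and the endothelial gene thus were both highest in UVB mouse 3, and the amount of blood in each sample was not tested.

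Cldn8 was followed most closely by Lrrc75a, at 0.033 over a range of 0.764. Lrrc75a read -1.0, -1.0 and -1.30 in controls and -1.53, -1.70 and -1.38 after UVB.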
